A study of Mus musculus with 17 samples.

Results

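The 49 genes described here code for parts of the lysosome, read here in mouse pancreatic stellate cells. They are 6 proteins of its membrane, 3 soluble cofactors (Npc2, Psap and Grn), 8 enzymes of glycan breakdown (glycosidases and the sulfatase Sgsh), 3 lipid hydrolases and 13 proteases (12 cathepsins and Tpp1). The others are 12 genes of the proton pump that acidifies it (the V-ATPase with its accessory protein Atp6ap1), and the 3 MiT/TFE transcription factors with the autophagy receptor Sqstm1. They were taken from a list of symbols matched to Ensembl gene IDs, by function and not by a measured value, and all 49 were found among the 35896 IDs in the deposited tables. Of these, 48 were among the 13923 genes with enough counts to test. Cathepsin S (Ctss), a protease typical of antigen-presenting cells, was the exception, with at most 0.177 CPM in any library. Levels are given as CPM, the counts scaled to a common library total after TMM correction of that total.

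Stellate cells are the lipid-storing cells of the pancreas that turn into fibroblasts in pancreatitis and around tumours. Cells of 2 lines, PSC4 and PSC5, both from wild-type C57BL/6J mice, were kept in Matrigel, a basement membrane gel, for 4 days in 1 of 4 media. Control medium was used for 5 libraries. TGF-beta at 20 ng/mL in control medium, known to drive the myofibroblast state, was used for 4 libraries. Medium conditioned by tumour organoids, called CM here, was used for 4 libraries. The fourth group, also 4 libraries, had CM with 300 nM neratinib, an irreversible inhibitor of the EGFR, HER2 and HER4 receptor kinases. No library had neratinib without CM. Each line was sampled at passages 23 to 25 (PSC4) or 27 to 28 (PSC5), 1 passage per replicate number, and the labels do not say whether cultures were otherwise separate, so the p-values measure the spread between these samples. The CM libraries with number 1 carry the medium code T8 and those with number 2 the code T6, whose meaning the labels do not give.

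Lysosomes break down material that arrives by endocytosis and autophagy. Their hydrolases work at acid pH, which the V-ATPase maintains by pumping protons through its membrane part (V0) with energy from ATP split by its cytosolic part (V1). Many lysosomal genes carry the E-box CACGTG, often within the longer CLEAR element, near their start, and TFEB, TFE3 and MITF bind it after they move from the lysosome surface to the nucleus, a step set by phosphorylation under mTORC1 more than by the level of their mRNA. Activated fibroblasts use secreted cathepsins to cut collagen and basement membrane. Neratinib is a basic, lipophilic molecule, and drugs of that kind are known as a class to collect in acidic compartments, so the main question was how these genes stood with neratinib against CM alone.

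The promoter sequences show where that E-box lies in the members. RefSeq windows (GRCm38.p6, from 250 bases before to 50 after a gene's start) were available for 40 of the 49 members, as 49 windows. The other members, Asah1, Atp6v0d2, Atp6v1b2, Atp6v1c1, Atp6v1h, Ctsb, Ctsh, Ctsw and Npc1, had no entry. CACGTG, which reads the same on both strands, was found in 14 of the 49 windows (28.6%) and in 7.15% of all 32851 windows in the table. TCACGTGA, which contains it, was found in 12.2% of member windows and 0.974% of all windows. TCATGTG, searched on both strands and not containing CACGTG, was found in 12.2% and 3.77%. The 120 bases before the Lamp1 start are shown because they hold the most copies of any member window, 4; no annotated exon covers them, and CACGTG is in capitals in every sequence shown.
Lamp1, chr8:13159041-13159160, plus strand: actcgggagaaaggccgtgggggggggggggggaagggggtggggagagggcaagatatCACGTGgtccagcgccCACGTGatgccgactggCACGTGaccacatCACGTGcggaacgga
The next 30-base stretches are those of the members with an E-box that passed the test with neratinib, 5 higher and 1 lower, each with the position of the first capital relative to the RefSeq start.
Ctsl at -236, chr13:64370739-64370768, minus strand: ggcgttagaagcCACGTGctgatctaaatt
Gla at -227, chrX:134601215-134601244, minus strand: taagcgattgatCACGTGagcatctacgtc
Gla at -194, chrX:134601182-134601211, minus strand: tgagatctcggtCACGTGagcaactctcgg
Mcoln1 at -71, chr8:3500436-3500465, plus strand: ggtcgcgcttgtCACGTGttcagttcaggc
Mcoln1 at -45, chr8:3500462-3500491, plus strand: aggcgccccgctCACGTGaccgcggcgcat
Naglu at -73, chr11:101070009-101070038, plus strand: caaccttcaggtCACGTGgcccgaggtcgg
Sgsh at -29, chr11:119355522-119355551, minus strand: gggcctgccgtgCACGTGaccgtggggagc
Ctsf at -79, chr19:4855074-4855103, plus strand: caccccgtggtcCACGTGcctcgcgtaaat
Both Gla copies and the Mcoln1 copy at -45 are preceded by t and followed by a, which makes the longer TCACGTGA, while the Ctsf and Ctsl copies are not. Annotated exons on either strand covered none of the Ctsf stretch and 9 to 30 bases of the others. Both Gla stretches lie upstream of the annotated Gla gene, so the exons there belong to a neighbour. A match of letters is a description and does not show that a factor was bound there.

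**Figure D1:**
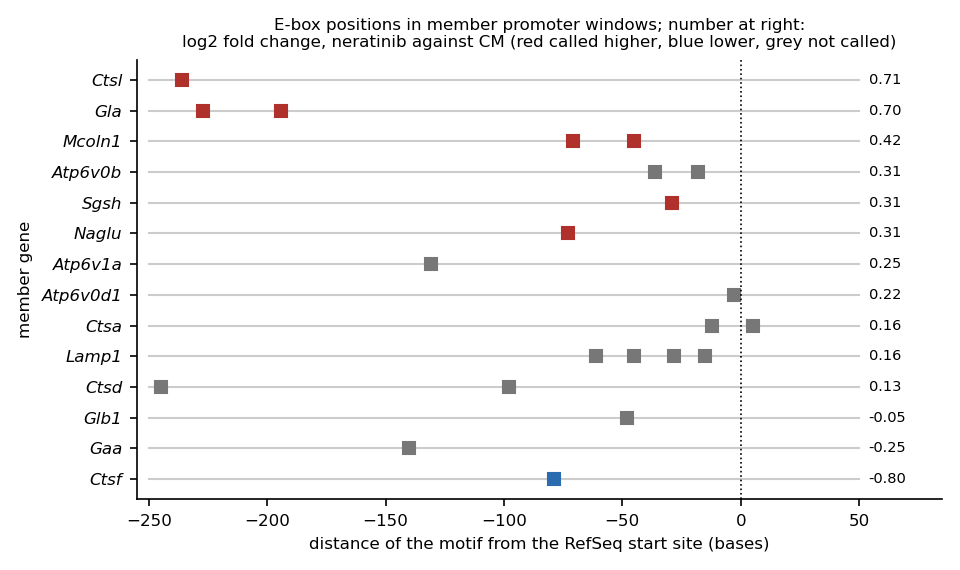
Position of each CACGTG (squares) in the promoter windows of the 14 members that hold one, as the distance in bases of its first base from the RefSeq start site (dotted line); the number at the right is the fitted log2 fold change of neratinib against CM, and colour gives the call. Lamp1 holds 4 copies within -61 to -15 with a log2 fold change of 0.16, and Gla 2 copies at -227 and -194 with 0.70.

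Library totals lay between 22168953 and 29421447 counts. Together the 49 members took 1.49 to 1.93% of the counts in control libraries, 1.21 to 1.62% with TGF-beta, 1.82 to 2.03% in CM and 2.05 to 2.53% in CM with neratinib. All 12 stellate and fibroblast marker genes were detected, with a summed level of 4280 CPM or more in every library, though Gfap reached at most 9 counts and Des 3.71 CPM. Of 11 tested, 1 was called higher and 0 lower in neratinib against CM, and 1 and 2 in CM against control. In CM with neratinib against control 1 was higher and 4 lower, and with TGF-beta 4 and 2. The 3 libraries labelled PSC4 replicate 1 lay with PSC5 on the third principal component (1.76 to 37.0, against -3.60 to 36.2 for PSC5 and -56.8 to -19.8 for the other PSC4 libraries), so counts are also given without them, each with the share of all genes called in the same fit. In neratinib against CM, 9 members were higher and 0 lower (7.42% and 6.73% of all genes), and in CM against control 13 and 0 (9.22% and 8.88%). In CM with neratinib against control 30 and 4 were called (20.6% and 19.7%), and with TGF-beta 8 and 13 (24.1% and 25.3%). Epithelial markers summed to 15.9 to 23.9 CPM in control medium and to 147 to 325 CPM in the 4 CM libraries with code T6, against 9.79 to 52.1 in the 4 with code T8. The part of that signal in the results was not tested, and counts are given within each code. Of 11 epithelial markers tested, 7 were called higher in CM and 10 in CM with neratinib, both against control, and none in neratinib against CM. PSC4 number 1 did not share this rise, with a sum of 20.4 CPM in CM and 9.79 CPM with neratinib. Cldn7 and Elf3 held 4 counts or fewer in every library outside the CM groups, so any call of these follows in part from the filter on low counts. Macrophage markers were mostly Cd14, with Ptprc at 1 count or fewer and Adgre1, Tyrobp, C1qa and C1qb at 0 in all 17 libraries. Cd14 lay between 11.2 and 15.6 CPM in control medium, 23.3 and 49.9 in CM, 32.2 and 64.2 with neratinib, and 4.15 and 5.07 with TGF-beta. It was called higher in both CM groups against control and lower with TGF-beta, and was not called in neratinib against CM (0.40 ± 0.22, adjusted p = 0.214), and its part in the results was not tested. Of 4 macrophage markers tested with TGF-beta against control, 1 was called higher and 1 lower. Fcer1g lay between 0.473 and 1.52 CPM with TGF-beta and between 0.0709 and 0.323 CPM in control medium. In bulk libraries, fewer cells of a type and less RNA per cell cannot be told apart.

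Summed over the role, the proteases gave 2949 to 3864 CPM in control medium, 3004 to 4174 with TGF-beta, 4253 to 4818 in CM and 5349 to 6930 in CM with neratinib. The V-ATPase genes gave 1704 to 2092, 1590.1 to 2454, 1947 to 2269 and 2216 to 3369 CPM in the same order. The glycan-digesting enzymes were lowest with TGF-beta, at 982 to 1180.4 CPM against 1312 to 1524 in control medium. The 3 lipid hydrolases lay between 434 and 606 CPM in every library.

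Per kilobase of annotated exon, the most abundant member in control medium was prosaposin (Psap, 746 CPM per kb), followed by Lamp1 (667), Ctsd (335) and Gpnmb (215). The transcription factors were far lower on the same scale, at 12.2 for Tfe3, 2.39 for Mitf and 1.93 for Tfeb. Ctsw and Atp6v0d2 were at 2 counts or fewer in every control library.

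Neratinib against CM asks what the inhibitor changed in cells that had the same organoid medium. Of 48 tested members, 14 rose, 1 fell and 33 did not pass the test (edgeR's quasi-likelihood test, Benjamini-Hochberg adjusted p under 0.05). Over all 13923 genes, 10.8% were called higher and 9.63% lower, and the members' shares were 29.2% and 2.08%. The median member stood at a log2 fold change of 0.17, against 0.000818 for all genes. Without Atp6v0d2, which was at 1 count or fewer in both groups, it was 0.16, and 35 of 47 members had a positive value. Within the 4 pairs of libraries that share line and number, 25 of the 48 members were higher with neratinib in every pair and 6 in none. The pairs were not counted over all genes, so this describes the members only. The 48 include Atp6v0d2 and Ctsw, which had very few counts in both groups. The 14 were Sqstm1, Atp6v1b2, Ctsl, Gla, Atp6v1h, Npc1, Atp6ap1, Psap, Mcoln1, Hexa, Ctsb, Sgsh, Naglu and Ctsz, and the 1 was Ctsf.

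**Figure D2:**
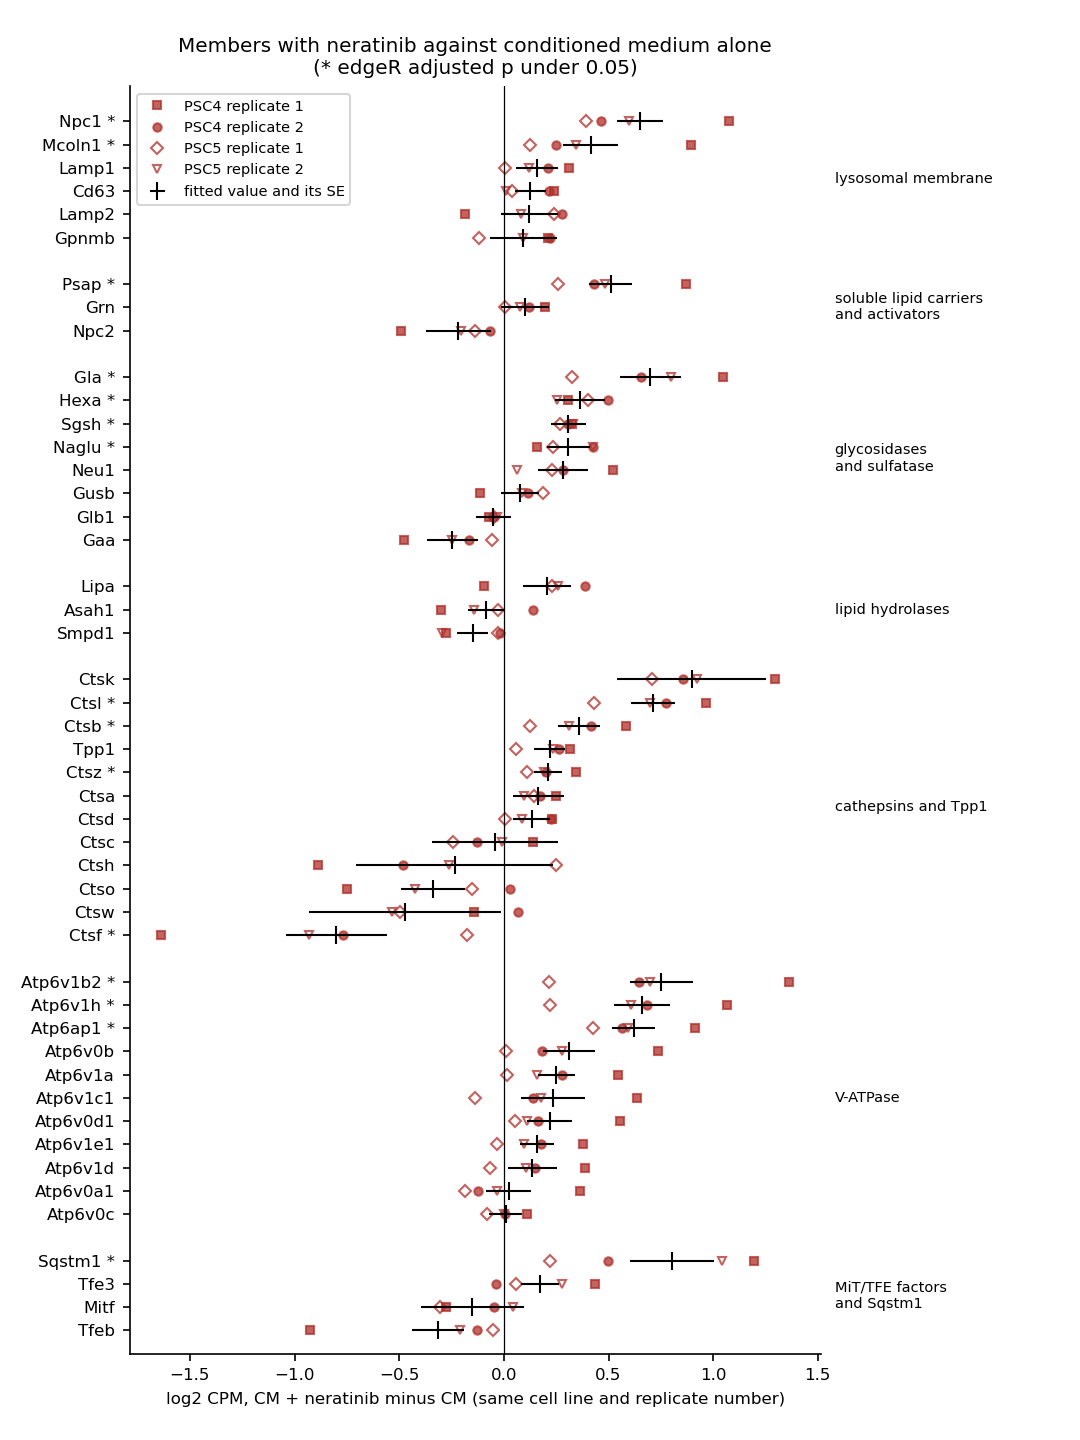
Difference in log2 CPM between CM with neratinib and CM for each pair of libraries that share line and number (symbols), with the fitted log2 fold change and its standard error (black), for the 47 members above the count floor, by role. All 11 V-ATPase subunits shown and all 6 membrane proteins have a fitted value above 0, and Ctsf has the lowest, -0.80.

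Of the 6 membrane proteins 2 rose. Npc1, which passes cholesterol from the lysosome lumen to its membrane, gave 78.8, 79.8, 79.7 and 72.6 CPM in the CM libraries (PSC4 numbers 1 and 2, then PSC5 numbers 1 and 2, the order used throughout). With neratinib it gave 166, 110.1, 105 and 110.0 CPM. Every neratinib library lay above every CM library, and the log2 fold change was 0.65 ± 0.11 (SE; adjusted p = 0.00147). Mcoln1, the calcium channel through which lysosomes signal to TFEB, gave 114, 122, 104 and 98.3 CPM in CM and 211, 145, 114 and 125 with neratinib, so that the groups overlapped although each pair was higher (0.42 ± 0.13, adjusted p = 0.0382). The structural glycoprotein Lamp1 gave 1970.2, 2037, 1799.5 and 1764 CPM in CM and 2443, 2355, 1806 and 1915 with neratinib, and did not pass the test (0.16 ± 0.10, adjusted p = 0.277). Gpnmb, a glycoprotein of lysosomes and melanosomes that is often used as a sign of lysosomal stress in macrophages, did not pass either: 1887, 1955, 1721 and 1505 CPM in CM and 2181, 2276, 1585 and 1606 with neratinib (0.09 ± 0.16, adjusted p = 0.730). Lamp2 (0.12) and the tetraspanin Cd63 (0.13) were not called.

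Of the soluble cofactors, prosaposin, the precursor of the sphingolipid activator proteins, rose to 4264, 3498, 2939 and 2868 CPM from 2334, 2596, 2460.1 and 2054, without overlap (0.51 ± 0.10, adjusted p = 0.00393). The cholesterol carrier Npc2, which hands cholesterol to Npc1, stood at -0.22 ± 0.15 (adjusted p = 0.342) and progranulin (Grn) at 0.10 ± 0.11 (adjusted p = 0.576). Npc1 passed the test and its partner Npc2 did not, and the difference between these genes was not tested.

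Of the 8 glycan-digesting enzymes, 4 rose and none fell. Alpha-galactosidase A (Gla, GRCm38 chrX:134588149-134601125), which trims globotriaosylceramide and is deficient in Fabry disease, had the largest value: 118, 130.3, 114 and 81.4 CPM in CM and 244, 205, 143 and 142 with neratinib (0.70 ± 0.15, adjusted p = 0.00478). The groups did not overlap, and each neratinib library exceeded its CM partner. Hexa, the alpha subunit of hexosaminidase A, gave 529.7 against 411 CPM on average (0.36 ± 0.12, adjusted p = 0.0422). Sgsh and Naglu, 2 enzymes of heparan sulfate breakdown, gave 0.31 ± 0.09 (adjusted p = 0.0212) and 0.31 ± 0.10 (adjusted p = 0.0436). Sgsh was even across libraries, at 28.4, 27.2, 29.6 and 29.3 CPM in CM and 35.6, 33.7, 35.7 and 36.9 with neratinib. Neu1, Gusb, Glb1 and Gaa, the last of them the glycogen-digesting alpha-glucosidase, did not pass, at 0.28, 0.08, -0.05 and -0.25. With line and number as a replicate block, Gaa was called lower (-0.24, adjusted p = 0.0293).

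None of the 3 lipid hydrolases, acid lipase (Lipa), acid ceramidase (Asah1) and acid sphingomyelinase (Smpd1), was called, with log2 values of 0.21, -0.09 and -0.15.

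Of the 12 tested proteases, 3 rose and 1 fell. Cathepsin L (Ctsl, chr13:64359337-64370890), a cysteine protease that degrades collagen and elastin as well as lysosomal cargo, gave 1137, 1251, 1237 and 1028 CPM in CM and 2223, 2137, 1669 and 1669 with neratinib (0.71 ± 0.11, adjusted p = 0.000636). The lowest neratinib library was higher than the highest CM library. Cathepsin B, another abundant cysteine protease, rose from 1349, 1213, 1383 and 1236 to 2020.5, 1617, 1507 and 1532 CPM (0.36 ± 0.10, adjusted p = 0.0211), and cathepsin Z by a smaller step (0.21 ± 0.07, adjusted p = 0.0355). Cathepsin D, the main aspartic protease of lysosomes, did not pass, at 1075, 998, 1032 and 963 CPM in CM and 1259.5, 1165, 1036 and 1022 with neratinib (0.13 ± 0.09, adjusted p = 0.318).

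Cathepsin K, the collagenase of osteoclasts and fibroblasts, had the largest fitted value of the members above the floor (0.90 ± 0.35) but an adjusted p of 0.0856. Its CPM was 14.3, 36.2, 14.5 and 8.42 in CM and 35.1, 65.6, 23.7 and 16.0 with neratinib. Each neratinib library was higher than its partner, while PSC4 number 2 was far above the other libraries in both groups. With the replicate block, which removes such differences between pairs, the value was 0.95 with an adjusted p of 0.00755. The block also called Tpp1, a tripeptidyl peptidase (0.22, adjusted p = 0.0424, against 0.0533 without it).

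Cathepsin F was the only member that fell, from 19.6, 18.7, 19.4 and 18.3 CPM in CM to 6.26, 11.0, 17.1 and 9.58 with neratinib (-0.80 ± 0.24, adjusted p = 0.0310). Its CM values lay close together and its neratinib values were spread widely, with PSC5 number 1 just under the lowest CM library. Ctsa, Ctsc, Ctsh and Ctso did not pass (0.16, -0.04, -0.23 and -0.34), and Ctsw was at 4 counts or fewer in every library of both groups.

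Of the V-ATPase, 3 members rose and none fell. They were Atp6v1b2, a subunit of the V1 ring that splits ATP, Atp6v1h, which couples ATP splitting to proton flow, and the accessory protein Atp6ap1. Atp6ap1 had no overlap, with 419, 491, 412 and 375 CPM in CM and 788, 727, 553 and 566 with neratinib (0.62 ± 0.10, adjusted p = 0.00119). Atp6v1b2 gave 156, 186, 140.3 and 142 CPM in CM and 402, 290.1, 163 and 229.5 with neratinib (0.75 ± 0.15, adjusted p = 0.00386), and Atp6v1h 108, 112, 91.4 and 95.4 and 226, 179, 107 and 146 CPM (0.66 ± 0.14, adjusted p = 0.00431). In both, PSC4 number 1 with neratinib was the highest library and PSC5 number 1 with neratinib the lowest of its group, inside the CM range. The other 8 subunits above the floor had values from 0.01 (Atp6v0c) to 0.31 (Atp6v0b) and did not pass. Atp6v1a, the ATP-binding subunit, reached an adjusted p of 0.0380 with the replicate block and 0.0540 without it.

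The MiT/TFE factors were not called. Tfeb gave 11.1, 9.46, 10.3 and 10.7 CPM in CM and 5.83, 8.64, 9.90 and 9.21 with neratinib (-0.32 ± 0.13, adjusted p = 0.0877), with PSC4 number 1 the lowest. Tfe3 gave 111, 146, 126 and 106 CPM and 149.7, 142, 131 and 128 (0.17 ± 0.09, adjusted p = 0.186). Mitf gave 23.8, 39.8, 28.8 and 15.9 CPM and 19.6, 38.5, 23.3 and 16.4 (-0.15 ± 0.25, adjusted p = 0.712), highest in PSC4 number 2 in both groups. Their windows held no CACGTG. Sqstm1, the p62 receptor that hands ubiquitinated cargo to autophagosomes and is itself a target of NRF2 and of the MiT/TFE factors, rose from 473, 373, 457 and 424 to 1082, 527, 532 and 874 CPM (0.80 ± 0.20, adjusted p = 0.0118). The difference was widest in PSC4 number 1 and PSC5 number 2.

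**Figure D3:**
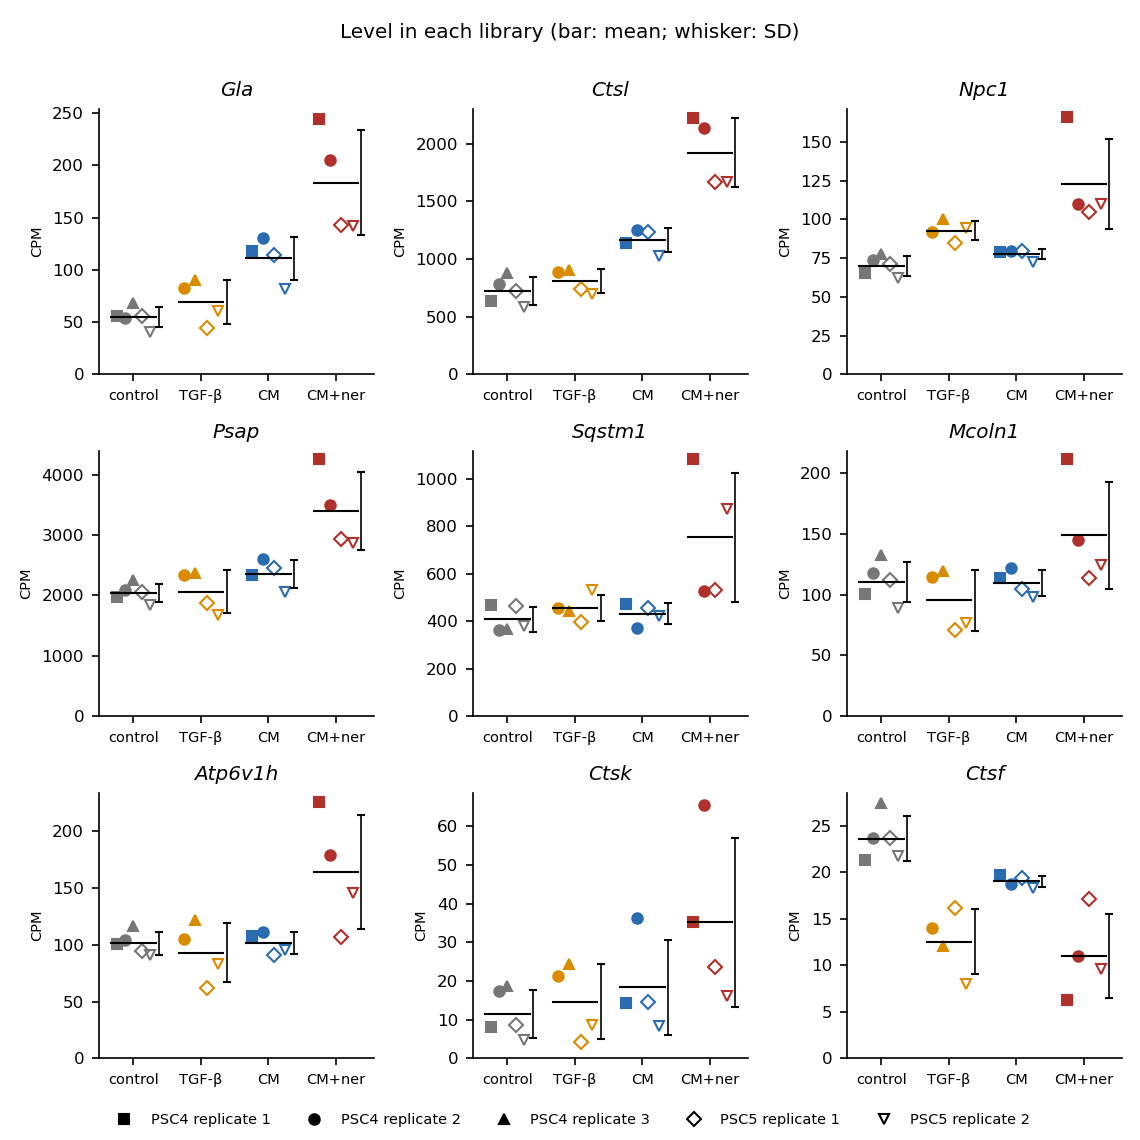
Level in CPM of 9 members in each of the 17 libraries, by medium, with the mean (bar) and SD (whisker); filled symbols are PSC4 and open symbols PSC5. Gla, Ctsl, Npc1, Psap and Sqstm1 with neratinib lie above every CM library, Ctsk is high in PSC4 number 2 in both CM groups, and Ctsf is lower with neratinib.

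By promoter, 5 of the 14 members with CACGTG were called higher and 1 lower with neratinib, at a median log2 fold change of 0.24. With a window but no CACGTG, 5 of 25 tested were called higher and none lower, at a median of 0.13. Of the 9 members without an entry, 4 were called higher. The difference between these sets was not tested.

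The size of the difference depended on the library pair. The median over members was 0.31 on the log2 scale in PSC4 number 1, 0.21 in PSC4 number 2, 0.06 in PSC5 number 1 and 0.10 in PSC5 number 2. PSC4 number 1 with neratinib was the highest library of its group for 26 of 48 members. Without neratinib, PSC4 number 3 was highest for 33 in control medium and 29 with TGF-beta, and PSC4 number 2 for 22 in CM. On the second principal component over all tested genes, PSC4 number 1 with neratinib lay at -84.1, against -46.9 to -17.2 for the rest of its group. The test of the difference between lines with edgeR called 0 of 48 members and 0% of all genes, and DESeq2 also called 0 members. Atp6v1a alone had an unadjusted p under 0.05 there, with a log2 fold change of 0.41 in PSC4 and 0.09 in PSC5.

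The calls differed in how they held. Npc1, Gla, Ctsl, Atp6v1h and Atp6ap1 kept an adjusted p under 0.05 in each of 18 other fits (other scaling, filters, terms or tool, and left-out libraries), and Psap, Atp6v1b2 and Sqstm1 lost it in 1, the fit to the 2 groups alone. Sgsh, Ctsb, Mcoln1, Ctsz, Ctsf, Naglu and Hexa lost it in 4 to 12, in each case also on leaving out 1 library. The count of 14 became 8 without either PSC4 library of CM, and Ctsf lost its call without any 1 of 7 of the 8 libraries. None of the 15 changed sign in any fit. Removing the T6 libraries, which held most of the epithelial signal, leaves 2 CM libraries with and 2 without neratinib. Then 1 member was called (Npc1, 0.75, adjusted p = 0.0463), where 0.893% of all genes were called higher. With the T8 libraries removed, 8 members and 4.45% of all genes were. Gla was 0.68 and 0.73 in these fits, Ctsl 0.69 and 0.74, Npc1 0.75 and 0.54, and Naglu, which differed most in proportion, 0.20 and 0.43.

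Other genes of the compartment were read from lists of known function. Of 25 further lysosomal enzymes and luminal proteins, 6 rose and 1 fell with neratinib against CM. Hgsnat, the membrane acetyltransferase of heparan sulfate breakdown, had the largest value (201 against 62.9 CPM, 1.60 ± 0.36, adjusted p = 0.00747). Aga, which cuts glycoasparagines, rose too (0.55). Of 17 further membrane proteins, 3 rose, among them the cystine exporter Ctns (0.47) and Tmem192 (0.46), and 1 fell, the amino acid sensor Slc38a9 (-0.51). Of 12 genes of sorting to the lysosome, 3 rose and 2 fell. The 3 belong to the mannose 6-phosphate route, which tags hydrolases for lysosomes. They were the receptor M6pr (0.42) and 2 subunits of the phosphotransferase that makes the tag, Gnptab (0.37) and Gnptg (0.32). The shares higher and lower were 24% and 4% of the enzymes and 17.6% and 5.88% of the membrane proteins. For the 12 sorting genes they were 25% and 16.7%, beside 10.8% and 9.63% over all genes.

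Of 10 further V-ATPase genes tested, 3 rose, including Atp6v1g1 (0.55) and Atp6ap2 (0.43), and 2 fell, including Tcirg1, the a3 subunit that osteoclasts use (-0.43 ± 0.10, adjusted p = 0.00852). Among 28 autophagy genes, 2 rose and 6 fell, with Atg12 at -0.57, Atg7 at 0.48 and the receptor Calcoco1 at -0.37. Among 20 genes of mTORC1 and TFEB control at the lysosome, 6 rose and 3 fell. The GTPase Rragd, a known MiT/TFE target (21.2 against 11.2 CPM, 0.82 ± 0.21, adjusted p = 0.0147), and the folliculin partner Fnip2 (0.67, adjusted p = 0.00544) rose together with Rheb (0.41). Rragd overlapped between the groups and was higher in 3 of 4 pairs, while Fnip2 and Rheb had no overlap. The list genes were not followed in the other fits. None of 3 cystatins, the inhibitors of cysteine cathepsins, passed. The shares higher and lower were 30% and 20% of the V-ATPase genes and 7.14% and 21.4% of the autophagy genes. For the genes of mTORC1 and TFEB control they were 30% and 15%, beside 10.8% and 9.63% over all genes.

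CM against control asks what organoid medium alone changed. Of 48 members, 14 rose and 0 fell with edgeR (16 and 0 with DESeq2), and at an unadjusted p under 0.05 the count was 23 and 0. The calls are 29.2% and 0% of members, where 7.05% and 7.14% of all genes were called higher and lower. The median member value was 0.22, and 42 of 48 were above 0. Without Atp6v0d2, at 1 count or fewer in both groups, the median was 0.21, and 41 of 47 were above 0. Scaling by the upper quartile gave 12 members higher, and 37.5% of all called genes were then higher in place of 49.7%. By role, 6 proteases, 3 glycan-digesting enzymes, 1 each of the membrane proteins, soluble cofactors, lipid hydrolases and V-ATPase subunits, and Mitf rose.

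Cathepsin C, which activates serine proteases of leukocytes by trimming their ends, had the largest value. It gave 24.6, 11.9, 13.0, 24.6 and 25.1 CPM in control medium (PSC4 numbers 1 to 3, then PSC5 numbers 1 and 2) and 74.2, 34.0, 98.8 and 61.3 in CM (1.71 ± 0.29, adjusted p = 0.00190). The groups did not overlap, and PSC4 numbers 2 and 3 were the lower libraries in control medium, as PSC4 number 2 was in CM. Gla rose from 55.6, 53.3, 68.4, 55.6 and 40.6 CPM to the CM values above (1.06 ± 0.14, adjusted p = 0.000323), and Ctsl rose from 635, 782, 883, 727 and 588 CPM (0.72 ± 0.10, adjusted p = 0.000489). Both had also risen with neratinib over CM, as had Ctsb (0.50 here), Naglu (0.47) and Ctsz (0.51); the 2 comparisons share the CM libraries.

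Cd63 (0.38), Asah1 (0.37), Ctsd (0.40 ± 0.08, adjusted p = 0.00746) and Npc2 (0.52) rose in CM and were not called with neratinib over CM. Mitf gave 11.8, 20.3, 20.9, 10.7 and 10.3 CPM in control medium and 23.8, 39.8, 28.8 and 15.9 in CM, with overlap (0.96 ± 0.24, adjusted p = 0.0159). PSC4 numbers 2 and 3 were the highest control libraries, and PSC4 number 2 the highest in CM. Tfeb (-0.09), Tfe3 (0.13), Sqstm1 (0.08), Lamp1 (0.12), Npc1 (0.17) and Mcoln1 (0.03) did not pass. The count was 9 without the CM library of PSC5 number 1, 12 without the T6 libraries (4.09% of all genes called higher) and 7 without the T8 libraries (4.36%). The replicate block called 20, adding Gpnmb (0.47, adjusted p = 0.0264), Ctsk (0.89, adjusted p = 0.0138), Grn (0.31, 0.0164), Gusb (0.17, 0.0413), Hexa (0.30, 0.0342) and Ctsa (0.23, 0.0284).

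Of the further genes of the compartment in CM against control, 1 of 10 V-ATPase genes (Atp6v1f, 0.29) and 4 of 28 autophagy genes rose, and 2 of 17 membrane proteins fell. These are 10.0%, 14.3% and 11.8% of the lists, beside 7.05% higher and 7.14% lower over all genes. Of 25 further enzymes and luminal proteins 1 rose and 0 fell (4% and 0%), and 0 of the 17 membrane proteins rose. Of 20 genes of mTORC1 and TFEB control 1 rose and 0 fell (5% and 0%). Of 12 sorting genes 1 rose and 1 fell (8.33% each). Fnip2 (0.79) and Gnptab (0.54) rose, the sorting receptor Sort1 fell (-0.87 ± 0.17, adjusted p = 0.00390), and the cathepsin inhibitor Cstb rose (0.46, adjusted p = 0.0490).

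CM with neratinib against control gives the position of the drug-treated cells relative to control medium. It shares its libraries with the comparisons above. Of 48 members, 34 rose and 3 fell, and the median was 0.43. Over all genes 22.2% were called higher and 20.9% lower, against 70.8% and 6.25% of members. Scaling by the upper quartile gave 30 members higher, with 41.1% in place of 51.4% of all called genes on the higher side. Gla (1.76 ± 0.14, adjusted p = 1.11e-06), Ctsk (1.70 ± 0.34, adjusted p = 0.00123) and Ctsc (1.67 ± 0.29, adjusted p = 0.000492) had the largest rises with a mean of 10 CPM or more, and Ctsl followed at 1.43 ± 0.10. In linear terms Gla was 54.7 ± 9.89 CPM (SD, n = 5) in control medium and 183 ± 50.2 CPM (SD, n = 4) with CM and neratinib, a fitted ratio of 3.40. Ctsk overlapped with control in spite of its size, since PSC5 number 2 with neratinib, at 16.0 CPM, was under the 2 highest control libraries (17.4 and 18.8 CPM).

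Lamp1 (0.28 ± 0.09, adjusted p = 0.0243) and Gpnmb (0.50 ± 0.15, adjusted p = 0.0165) rose here and were called in neither of the separate steps in the main fit. Both overlapped with control. The Lamp1 call was lost in 8 of 19 other fits and the Gpnmb call in 1. Of 11 V-ATPase subunits above the floor, 9 rose, by 0.30 (Atp6v1d) to 0.92 (Atp6v1b2). Npc1 (0.82), Mcoln1 (0.45), Psap (0.74) and Sqstm1 (0.88) rose as well. The 3 that fell were Ctsf (-1.12 ± 0.24, adjusted p = 0.00174), the little-studied cathepsin O (Ctso, 15.9, 13.7, 12.5, 16.0 and 17.8 CPM in control medium and 8.94, 11.2, 11.1 and 12.5 with neratinib, -0.50) and Tfeb (-0.40 ± 0.12, adjusted p = 0.0149). Tfeb fell while Mitf (0.81) and Tfe3 (0.30) rose, so the 3 factors' mRNA did not move one way. The block added Npc2 (0.34, adjusted p = 0.0220), Gusb (0.24, 0.00312) and Lipa (0.22, 0.0330), and without the T8 libraries 1 member was called lower in place of 3 (16.6% of all genes).

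Among the further genes, 12 of 25 enzymes rose and 3 fell, with Hgsnat at 1.80 and the iduronate sulfatase Ids at -1.04. These are 48% and 12% of the list, beside 22.2% higher and 20.9% lower over all genes. Of 17 membrane proteins 4 rose and 3 fell (23.5% and 17.6%), and of 28 autophagy genes 5 and 4 (17.9% and 14.3%). Of 12 sorting genes 4 rose and 1 fell (33.3% and 8.33%), and of 10 V-ATPase genes 5 and 0 (50% and 0%). Of 20 genes of mTORC1 and TFEB control 8 rose and 3 fell (40% and 15%), and of 3 cystatins 1 and 0. Fnip2 (1.46), Rragd (1.04, with overlap), Gnptab (0.91) and M6pr (0.56) rose, and Sort1 (-1.25) and Slc38a9 (-0.93) fell.

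**Figure D4:**
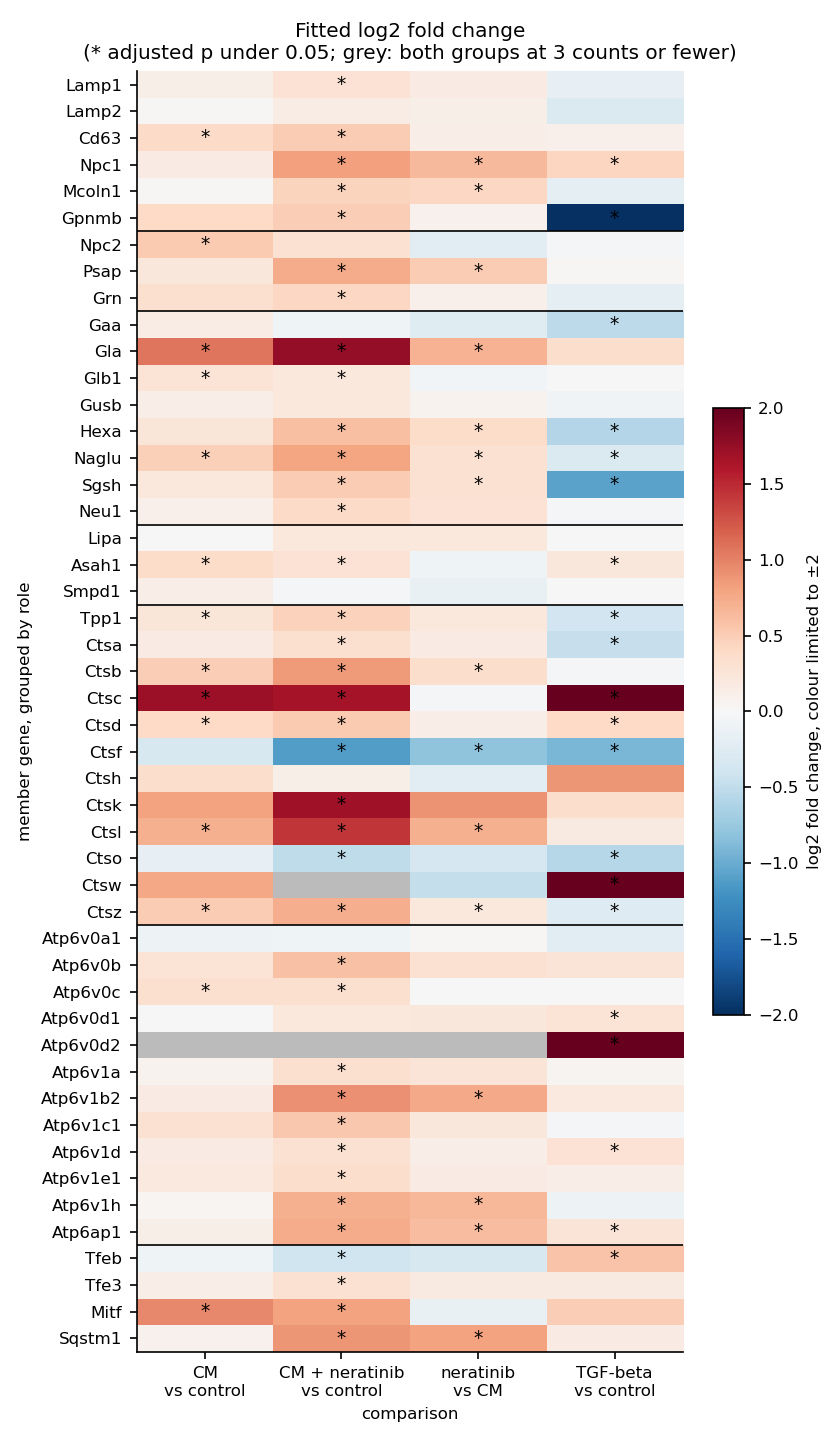
Fitted log2 fold change of the 48 tested members in the 4 comparisons (columns), ordered by role (rows, lines between roles), on a colour scale limited to ±2; asterisks mark adjusted p under 0.05 and grey cells pairs of groups at 3 counts or fewer. The second column, CM with neratinib against control, holds 34 higher and 3 lower calls, and the fourth, TGF-beta, 10 of each.

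TGF-beta against control asks how the myofibroblast stimulus changed the same genes. Members were called in both directions, 10 higher and 10 lower, which is 20.8% each, where 19.7% of all genes were called higher and 20.5% lower. Ctsw and Atp6v0d2 passed the filter on low counts only through the TGF-beta libraries, so their calls follow in part from that choice. Without them 8 of 46 members were higher and 10 lower (17.4% and 21.7%), at a median of -0.01. Of the glycan-digesting enzymes 4 were lower and none higher of 8, and of the 11 other V-ATPase genes 3 were higher and none lower.

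The largest difference was in cathepsin W, a protease otherwise known from cytotoxic lymphocytes and NK cells. It held 2 counts or fewer in each control library and gave 23.4, 24.6, 24.4 and 39.8 CPM with TGF-beta (PSC4 numbers 2 and 3, then PSC5 numbers 1 and 2), at least 235-fold higher than a floor of 3 counts per library. In CM and with neratinib it was at 0.153 CPM or less. Lymphocyte markers were also higher in these libraries, at a low level: 12 T and NK markers summed to 1.75 to 3.72 CPM with TGF-beta against 0.286 to 0.718 in control, made up mostly of Trac and Klrb1c. These 2 were the only ones with enough counts to test. Both were called higher (3.12 ± 0.53 and 3.95 ± 0.54), from at most 7 counts in a control library to at most 59 with TGF-beta. In every other medium both lay too low to pass the filter on low counts, so these calls follow in part from it. Cd3e, Cd3g, Cd8a, Cd4, Nkg7, Gzma and Ncr1 were at 0 in all libraries. The part of other cells in the Ctsw level was not tested. Atp6v0d2, an osteoclast-type V0 subunit, was at 0 in every control library and at 4.21, 6.21, 0.989 and 2.97 CPM with TGF-beta, at least 30.1-fold higher than the floor. The 4 libraries with TGF-beta lay above every other library for both genes.

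Ctsc rose to 75.7, 85.2, 87.8 and 102 CPM (2.13 ± 0.29, adjusted p = 5.02e-05), as it had in CM. Tfeb rose (11.5, 10.4, 9.27, 12.4 and 11.1 CPM in control, 15.9, 16.3, 17.2 and 15.8 with TGF-beta; 0.57 ± 0.12, adjusted p = 0.00138) with no overlap, the reverse of its direction in CM with neratinib. Npc1 (0.43 ± 0.10, adjusted p = 0.00439) and Ctsd (0.40 ± 0.08, adjusted p = 0.00148) also rose. Smaller rises of Atp6v1d, Atp6v0d1, Atp6ap1 and Asah1, between 0.22 and 0.28, were less firm. With the replicate block the first 3 had adjusted p-values of 0.0512, 0.0580 and 0.0517, and the count of 10 was 6 without any 1 of 3 control libraries (PSC4 numbers 1 and 2, PSC5 number 2) or of the 2 PSC4 libraries with TGF-beta, and also 6 with upper-quartile scaling, with no filter on low counts or with no term for the line.

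Gpnmb fell most among the members, from 1272, 1562, 1765, 1329 and 1059 CPM to 414, 409.7, 186 and 183 (-2.25 ± 0.16, adjusted p = 1.15e-07). Both lines were lower, and PSC5 was lower than PSC4 with TGF-beta. Sgsh fell from 27.4, 20.3, 23.3, 26.6 and 26.2 to 12.2, 12.7, 10.9 and 11.2 CPM (-1.08 ± 0.08, adjusted p = 2.77e-07), and Ctsf from 21.3, 23.6, 27.5, 23.7 and 21.8 to 14.0, 12.1, 16.1 and 7.93 (-0.92 ± 0.23, adjusted p = 0.00533). Hexa (-0.59), Ctso (-0.56), Gaa (-0.53), Ctsa (-0.46), Tpp1 (-0.38), Naglu (-0.28) and Ctsz (-0.25) fell too. Lamp1 (-0.16), Mcoln1 (-0.20), Sqstm1 (0.16), Tfe3 (0.18) and Mitf (0.49) did not pass, although the block called Mitf (0.37, adjusted p = 0.0150), Ctsh (0.59, adjusted p = 0.0151) and Lamp2 (-0.35, adjusted p = 0.00325).

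Set side by side, 8 members were called in opposite directions and 8 in the same direction with TGF-beta and with CM plus neratinib, both against the shared control libraries. Hexa, for example, was 356 ± 48.2 CPM (SD, n = 5) in control medium, 235 ± 67.4 CPM (SD, n = 4) with TGF-beta and 529.7 ± 58.3 CPM (SD, n = 4) with CM and neratinib. Ctsf was lower in both, at 23.6 ± 2.43 CPM (SD, n = 5), 12.5 ± 3.49 CPM (SD, n = 4) and 11.0 ± 4.55 CPM (SD, n = 4). Shared and opposite directions were not counted over all genes, so the 8 and 8 describe the members only.

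**Figure D5:**
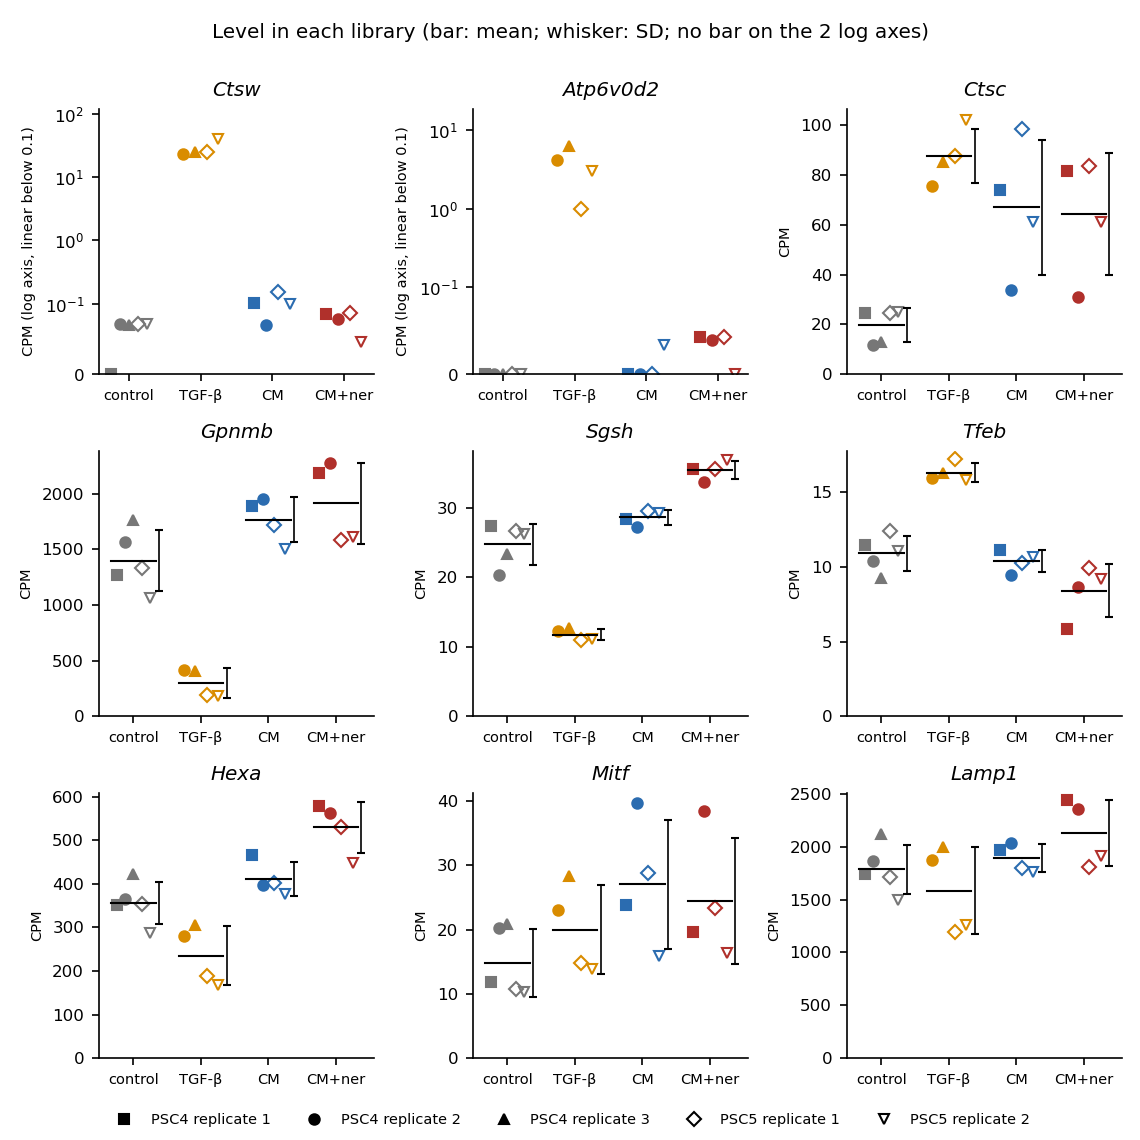
Level in CPM of 9 members in each of the 17 libraries, by medium, with mean (bar) and SD (whisker) except for Ctsw and Atp6v0d2, whose axes are logarithmic above 0.1 CPM and linear below. Ctsw is at 23.4 CPM or more with TGF-beta and at 0.153 or less in the other media, Gpnmb and Sgsh are lowest with TGF-beta, and Tfeb is highest there.

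For the genes named in every comparison, the levels in control medium and TGF-beta are given here. Lamp1 gave 1738, 1867, 2116, 1714 and 1493 CPM in control medium and 1879, 1994, 1197 and 1262 with TGF-beta, where the PSC4 libraries lay within the control range and both PSC5 libraries under it. Ctsd gave 798, 800.4, 861, 764 and 710.3 and 1195, 1268, 835 and 845 CPM, Npc1 65.1, 73.6, 77.4, 70.9 and 62.1 and 91.8, 100.2, 84.7 and 94.5. Mcoln1 was at 101, 117, 133, 112 and 89.3 CPM in control medium and 114, 119, 70.8 and 77.0 with TGF-beta, and Sqstm1 at 467, 363, 367, 463 and 382 and 454, 443, 396 and 532. Tfe3 was at 114, 117, 119, 109 and 107 and 144, 150.0, 102 and 115 CPM, and Mitf with TGF-beta at 23.1, 28.4, 14.7 and 13.9.

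The further genes with TGF-beta gave 1 higher and 8 lower of 25 enzymes, with Gm2a at -1.08, and 3 higher and 5 lower of 17 membrane proteins, with the endolysosomal cation channel Tpcn1 at 1.02 ± 0.11 (adjusted p = 6.45e-06). The counts are 4% and 32% of the enzymes and 17.6% and 29.4% of the membrane proteins, beside 19.7% and 20.5% over all genes. Of 12 sorting genes 2 rose and 3 fell (16.7% and 25%), and of 10 V-ATPase genes 2 and 1 (20% and 10%). Of 28 autophagy genes 3 rose and 4 fell (10.7% and 14.3%), and of 20 genes of mTORC1 and TFEB control 3 and 3 (15% each). Sort1 (-1.35), Gnptg (-0.65) and M6pr (-0.41) fell, so M6pr and Gnptg fell with TGF-beta and rose with neratinib over CM. Atp6v1g1 (1.12 ± 0.11, adjusted p = 3.09e-06) and Atp6ap2 (0.54) rose. Of the cystatins, Cst6 rose (1.29) and Cst3, the main secreted inhibitor, fell (-0.77 ± 0.16, adjusted p = 0.00159).

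Some members share exon bases with other annotated genes, and reads there may be shared between them: 34.4% of the exon length of Ctsd lies within the same-strand gene Gm49369, and 26.8% of Ctsl, 21.6% of Sgsh and 17.3% of Sqstm1 lie opposite exons of other genes. Whether the counting used strand is not given in the sources used here.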

How the data were processed

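RNA of 17 libraries was sequenced as mRNA libraries. Per the submitters' processing notes, the authors made expected counts with Salmon 1.4.0 and GRCm38 (mm10) was the build; the deposited files hold these expected counts by Ensembl ID, unscaled for depth, and other steps are not given in the sources used here. Rounding to whole numbers moved no library total by more than 307.9 counts. Symbols matched 35437 of 35896 IDs. Genes passing filterByExpr by group (10 counts in enough libraries, 15 in total) were fitted with edgeR 4.0.16 under R 4.3.3 with TMM factors, medium and cell line as terms, over all libraries, and p-values were adjusted over all 13923 genes. Standard errors come from the same test. Plotted log2 CPM has a prior count of 2. A floor of 3 counts and its bounds cover counting error only. Positions and exon lengths are from GENCODE M21 (GRCm38).

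The 49 members, the lists and the tests were chosen with earlier results of these data known. Named genes were, per comparison, the 3 largest called rises and falls with a mean of 10 CPM or more, 9 fixed members, and up to 3 called genes per list (some list genes are not reported here); other members are named where a count is spelled out. The list genes numbered 172, and 171 matched. Of pairs of libraries of different groups with the same line and number, 22 of 22 had deviations from the group means that correlated over 0.1 (median 0.299, against -0.0756 for the same line with another number). With another number 14 of 32 pairs of the same line were over 0.1, and 14 of 54 pairs of different lines. The labels give libraries of the same line and number the same passage, so the numbers were taken to pair them. The fit with this replicate block was an alternative, beside DESeq2 1.42.0, other scaling, filters, terms and left-out libraries. The scripts were tested on simulated data.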

Additional observations from a re-analysis of the deposited data

Results flagged for a closer look

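Npc1 in the CM with neratinib library of PSC4 replicate 1 lay apart from the other 3 of its group, with 166 CPM against 105 to 110.1 CPM, a gap of 0.889 of the group's range. Without that library Npc1 was still called against CM (edgeR). In CM alone, the PSC5 replicate 2 library had the lowest Npc1 level, 72.6 CPM against 78.8 to 79.8 CPM, a gap of 0.865 of a narrow range. Ctsw with TGF-beta was highest in PSC5 replicate 2, at 39.8 CPM against 23.4 to 24.6 CPM (0.904 of the range), and all 4 libraries were far above control. In all, 187 groups of 4 or 5 libraries were looked at over the 48 members, 3 were flagged, and chance alone flags about 1 in 20 such groups.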

How the results depend on the processing

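Every fit below was run on the whole table; removing the T6 or the T8 libraries was added after seeing the data. No called member changed sign in any of them. Of the calls, 5 of 15 held in all 18 alternatives for neratinib against CM, 8 of 14 in all 19 for CM against control, 15 of 20 for TGF-beta and 26 of 37 for CM with neratinib against control. For neratinib against CM, the 14 members called higher became 6 with only the groups compared, 9 without the PSC4 replicate 1 libraries, 1 without the T6 and 8 without the T8 libraries, and 8 to 15 on leaving out 1 library. The 1 called lower became 0 with only the groups compared and without the PSC4 replicate 1, the T6 or the T8 libraries, 2 with the PSC4 replicate 1 libraries counted as PSC5, and 0 to 2 on leaving out 1 library. With the replicate block the counts were 17 and 2, and DESeq2 gave 17 and 1. For CM against control, the 14 called higher became 7 without the T8 libraries and 9 to 14 on leaving out 1 library, 20 with the replicate block, and the 0 lower became 1 with only the groups compared. For TGF-beta, the 10 called higher became 6 with upper-quartile factors, no filter on low counts or no cell line term, and 6 to 13 on leaving out 1 library, and the block gave 9 higher and 11 lower. For CM with neratinib against control, the 3 called lower became 1 without the T8 libraries, and the block gave 37 higher and 3 lower. The block changed no call of a member beyond those named above. Apart from removing libraries and the fit to the groups alone, the cause of these changes was not tested. A floor of 3 counts is 0.101 to 0.138 CPM, so changes in Ctss, Ctsw and Atp6v0d2 outside TGF-beta could not be seen at this depth.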
